A study of Homo sapiens with 4 samples.

Results

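Amino acid transporter genes of the solute carrier families SLC1, SLC3, SLC6, SLC7, SLC36, SLC38 and SLC43 were compared between the breast cancer cell lines MDA-MB-231 and LM2-4175. The genes were matched by their symbols, with SLC7A11 left out, which gave 58 of the 57815 genes in the deposited table. The choice was made with earlier results of these data known. MDA-MB-231, a breast cancer line, is classed as triple-negative (hormone receptors absent and HER2 not overexpressed), and LM2-4175 is a single derivative isolated from it that metastasizes to the lung, so each line is one culture model and not a set of tumours. Both lines were untreated and grown in DMEM with fetal bovine serum, and total RNA of each was sequenced in 2 libraries, 4 in all. The authors deposited for each gene and cell line one FPKM (fragments per transcript length and sequencing depth, a level that can be compared between genes of different length) with a lower and an upper bound, in which the libraries of a line had been combined. The values used here therefore include none per library, and no replicate check or p-value is given here for any difference. The authors' own test between the lines was not used. The table does not give the number of reads behind a value.

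Amino acids cross membranes mainly through carrier proteins. Some carriers, such as the SLC38A1 and SLC38A2 proteins, use the sodium gradient to load the cell with small neutral amino acids and glutamine. Others are exchangers: the SLC7A5 protein (LAT1), which needs the heavy chain SLC3A2 (CD98hc) to reach the surface, brings in leucine and other large neutral amino acids and lets glutamine out. A further set acts at the lysosome, where amino acid levels are read by the kinase complex mTORC1. Many cancers, breast cancer among them, are known for high levels of SLC7A5, SLC3A2 and SLC1A5.

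Of the 58 genes, 26 (44.8%) reached a mean of 0.5 FPKM over both lines, against 24.1% of all genes in the table and 62.3% of the protein-coding genes. All 26 lay above 0.5 FPKM in each line, so none was included through one line alone. The limit fell into a gap: the lowest gene inside it, SLC1A1, had a mean of 0.968 FPKM and the highest outside it, SLC6A12, had 0.280 FPKM. Genes were called as changed in LM2-4175 where FPKM + 1 differed by at least 1.5-fold and the deposited bounds of the lines did not overlap. By this rule 1 of the 26 transporters was called lower (SLC7A5) and 0 were called higher, a share of 3.85%, whereas 9.27% of the 13911 genes tested in the whole table were called in either direction, 4.61% lower and 4.67% higher. With both lines scaled to the same FPKM sum (as TPM), or with the median change of all genes set to 0, SLC38A1 was also called, so that 1 was higher and 1 lower. Over all genes tested, 735 were then called higher and 547 lower with equal sums, and 683 and 579 with the median shifted. Without rescaling, 649 were called higher and 641 lower. At 1.5-fold without regard to the bounds, 2 transporters were higher and 2 lower (15.4% in all, against 22.1% of all genes, 10.3% higher and 11.8% lower). The median log2 fold change of the 26 genes was 0.14, with a range of -1.06 to 0.89, beside a median of -0.04 over all genes tested. The median size of change in either direction was 0.26 for the transporters and 0.28 for all genes tested.

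**Figure D1:**
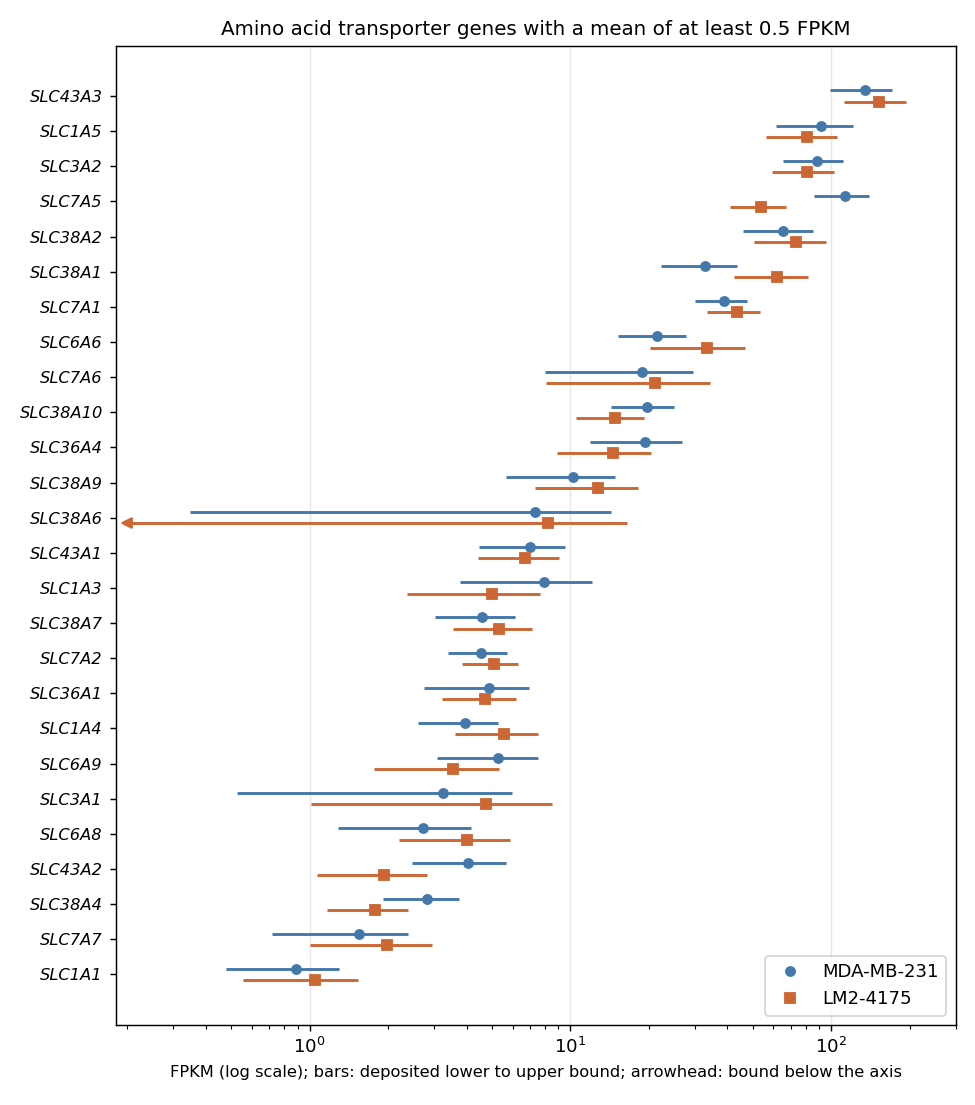
FPKM on a log scale (x axis) of the 26 transporter genes with a mean of at least 0.5 FPKM (y axis, by mean level) in MDA-MB-231 (circles) and LM2-4175 (squares), with bars from the deposited lower to the upper bound. The bars of SLC7A5 are apart (86.0 to 140.2 FPKM against 40.8 to 66.9 FPKM), and those of the other 25 genes overlap.

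The lines were checked against marker genes. All 6 mesenchymal markers reached 0.5 FPKM, with VIM, CD44, AXL and LGALS1 between 322 and 1789 FPKM in both lines, CAV1 at 587 and 151 FPKM and ZEB1 at 26.1 and 40.5 FPKM. The hormone receptor genes ESR1 and PGR were at 0.033 FPKM or less, while ERBB2, which encodes HER2, was at 35.0 FPKM (20.9 to 49.0) and 22.8 FPKM (12.8 to 32.7). Of 7 luminal epithelial markers, 5 reached 0.5 FPKM and all 5 were lower in LM2-4175, with KRT8 and EPCAM called, and of the 6 mesenchymal markers CAV1 was called lower. The summed level of the luminal list was 677 FPKM in MDA-MB-231 and 211 FPKM in LM2-4175. KRT8 alone held 626 and 180 FPKM of these sums. The part of this luminal difference in the transporter results was not tested. Of the 7 leukocyte markers, CD2 and CD3E were listed at 0 in both lines, and the list summed to 4.61 and 2.73 FPKM. The endothelial markers TEK, CDH5 and VWF were at 0.086 FPKM or less in both lines, while KDR was called higher, from 0.971 to 2.48 FPKM.

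SLC7A5, the light chain that carries leucine and other large neutral amino acids, was the transporter that fell. Its level was 113 FPKM in MDA-MB-231 (bounded by 86.0 and 140.2), against 53.9 FPKM in LM2-4175 (bounds 40.8 to 66.9), 2.10-fold lower, with a log2 fold change of -1.06. Dividing the lower bound of one line by the upper bound of the other, and the reverse, gave the ratios that the bounds allow, here 0.291 to 0.778. SLC7A5 went from the 2nd to the 6th highest of the 58 transporters, and it was called lower under every setting tried, at 2-fold as well. In RNA from whole cultures, fewer cells with the transcript and less transcript per cell cannot be told apart. The gene (ENSG00000103257, chromosome 16 of GRCh37, 87863629 to 87903113, minus strand) shares 5.69% of its exon bases with a gene on the other strand, and its copies SLC7A5P1 and SLC7A5P2 were listed at no more than 0.0428 FPKM in either line. The 46 protein-coding genes tested within 3 Mb of SLC7A5 had a median log2 fold change of 0.04, with 25 higher, 21 lower and 1 called lower. A change confined to the gene itself was not tested.

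The promoter of SLC7A5 is shown because this was the gene that was called, and those of SLC38A1 because its call turned with the scaling. The sequences are the 250 bases before the annotated start, from RefSeq on GRCh38.p14, in the direction of transcription. A pair of motifs was searched on both strands in these and in 50 bases after the start, CACGTG (the E-box, which reads the same on both strands) and TGATGCA (the first letters of the C/EBP-ATF response element), and matches are in capitals.
SLC7A5, chr16:87869508-87869757, minus strand: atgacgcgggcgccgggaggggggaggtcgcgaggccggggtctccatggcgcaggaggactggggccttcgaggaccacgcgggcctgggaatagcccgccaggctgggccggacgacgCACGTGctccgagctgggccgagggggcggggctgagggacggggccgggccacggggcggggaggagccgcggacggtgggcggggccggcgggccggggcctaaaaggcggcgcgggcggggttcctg
SLC38A1, downstream start, chr12:46266517-46266766, minus strand: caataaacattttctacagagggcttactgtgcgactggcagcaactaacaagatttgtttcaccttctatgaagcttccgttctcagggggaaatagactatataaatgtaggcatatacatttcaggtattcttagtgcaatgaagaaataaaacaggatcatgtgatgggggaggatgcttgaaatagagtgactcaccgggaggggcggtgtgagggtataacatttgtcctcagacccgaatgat
SLC38A1, upstream start, chr12:46267988-46268237, minus strand: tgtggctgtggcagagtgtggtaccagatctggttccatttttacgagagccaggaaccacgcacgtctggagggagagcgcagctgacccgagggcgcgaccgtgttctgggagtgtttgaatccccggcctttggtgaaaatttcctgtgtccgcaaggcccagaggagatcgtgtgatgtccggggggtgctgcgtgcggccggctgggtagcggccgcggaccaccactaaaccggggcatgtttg
The SLC7A5 window was rich in G and C (79.6%, with 34 CG dinucleotides) and held one E-box, whose first base lay 130 bases before the start. The downstream window of SLC38A1 had 42.4% G and C and the upstream window 61.6%, and neither held a match. RefSeq windows were found for 44 of the 58 genes and for 22 of the 26 tested. The E-box was in 15.0% of the 40 windows of the genes tested and in 7.26% of all 35116 windows. TGATGCA was in 10.0% and 2.63%, and the 4 genes tested that held it were SLC1A3, SLC1A4, SLC1A5 and SLC38A7. The motifs overlapped in no window of a transporter. A match describes these letters only.

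The heavy chain SLC3A2, which SLC7A5 needs to reach the surface, was not called. SLC3A2 had 88.2 FPKM in MDA-MB-231 (bounded by 65.3 and 111), against 80.9 FPKM in LM2-4175 (59.4 to 103), a log2 fold change of -0.12, and the bounds allow ratios of 0.534 to 1.57. The level of SLC7A5 was thus 1.28 times that of SLC3A2 in MDA-MB-231 and 0.666 times in LM2-4175. SLC7A6 (y+LAT2), a light chain that exchanges arginine for glutamine, had 18.8 and 21.1 FPKM. SLC7A7 (y+LAT1), of the same exchange system, had 1.55 and 1.97 FPKM. Their bounds overlap widely, and 55.6% of the exon bases of SLC7A6 are shared with genes on the other strand, SLC7A6OS among them. The light chains SLC7A8 (LAT2), SLC7A9 and SLC7A10 were at 0.103 FPKM or less in both lines, and SLC7A13 was listed at 0. The 5 light chains known to pair with SLC3A2, leaving out SLC7A11, summed to 134 FPKM in MDA-MB-231 and 77.1 FPKM in LM2-4175. SLC7A5 alone went from 113 to 53.9 FPKM, a larger fall than that of the sum, while SLC7A6 and SLC7A7 had slightly higher values. SLC3A1, the heavy chain that pairs with SLC7A9 in kidney and gut, was listed at 3.25 and 4.76 FPKM, but 54.6% of its exon bases overlap other genes, among them PREPL on the other strand, and the lower bounds of 0.526 and 1.01 FPKM lay far below the values.

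The SLC43 family contains the uniporters of large neutral amino acids. SLC43A2 (LAT4) had 4.06 FPKM in MDA-MB-231 (bounded by 2.48 and 5.65), against 1.94 FPKM in LM2-4175 (1.07 to 2.81). At 0.476 its ratio was the same as that of SLC7A5 to this precision, but the bounds overlap and the gene was not called. SLC43A1 (LAT3) was at 6.99 and 6.71 FPKM. SLC43A3, which despite its name is known as a carrier of purine nucleobases, had the highest level of all 58 genes in both lines, at 135 FPKM (98.8 to 171) and 153 FPKM (112 to 193). A gene on the same strand overlaps 29.9% of its exon bases. The 4 genes of system L, the uptake of leucine and related amino acids, are SLC7A5, SLC7A8, SLC43A1 and SLC43A2. They summed to 124 FPKM in MDA-MB-231 and 62.6 FPKM in LM2-4175, a ratio of 0.504. SLC7A5 alone held 113 and 53.9 FPKM of these sums.

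**Figure D2:**
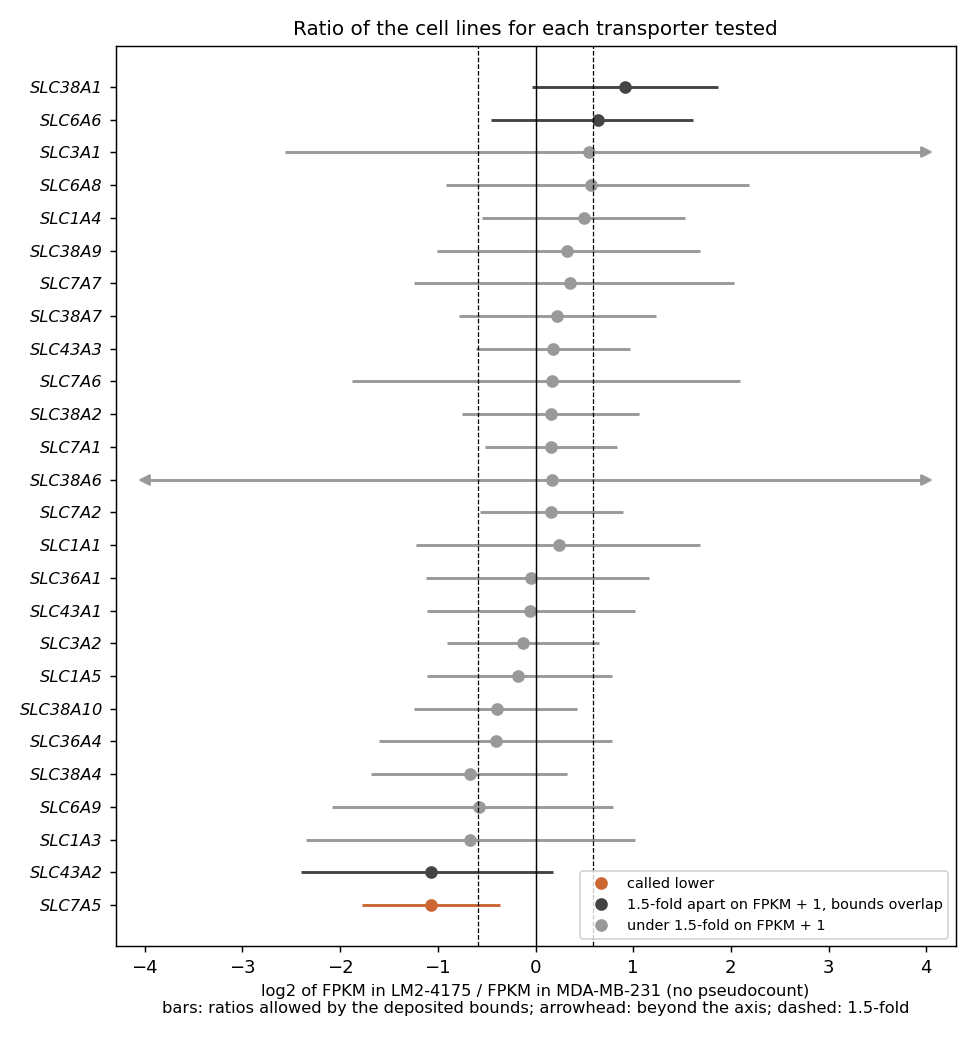
Log2 ratio of FPKM in LM2-4175 to FPKM in MDA-MB-231 without a pseudocount (x axis) for each of the 26 transporters tested (y axis, by fold change of FPKM + 1), with bars for the ratios that the deposited bounds allow and dashed lines at 1.5-fold. The bar of SLC7A5 lies below 0, from a ratio of 0.291 to one of 0.778, and the bar of SLC38A1 just crosses 0.

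The SLC38 genes had the largest difference upwards of the 10 groups in summed FPKM, though not as a ratio, with 143 FPKM in MDA-MB-231 and 178 FPKM in LM2-4175 (a ratio of 1.24), and 7 of the 11 genes were tested. The carriers of GABA, taurine, betaine and creatine had the higher ratio, 1.52, at 24.7 and 37.6 FPKM. SLC38A1 (SNAT1), which takes up glutamine and other neutral amino acids with sodium, had 32.9 FPKM in MDA-MB-231 (bounded by 22.2 and 43.5), against 61.9 FPKM in LM2-4175 (42.3 to 81.4). Its log2 fold change was 0.89 and the bounds allow ratios of 0.974 to 3.66. The lower bound of LM2-4175 lay just under the upper bound of MDA-MB-231, and this overlap disappeared under either of the rescalings above, with log2 fold changes of 0.98 and 0.94. SLC38A2 (SNAT2), which many cells induce when amino acids are short, was at 65.7 FPKM (46.1 to 85.2) and 73.4 FPKM (50.8 to 96.0). SLC38A4 (SNAT4), the third gene of system A, had 2.82 FPKM (1.92 to 3.73) and 1.78 FPKM (1.16 to 2.39). The 3 genes lie side by side on chromosome 12 of GRCh37, between 46576846 and 47226191, and their log2 fold changes were 0.89, 0.16 and -0.46. The 37 protein-coding genes tested within 3 Mb of SLC38A1 had a median of 0.12, with 1 called higher. SLC38A1 was at 0.50 times the level of SLC38A2 in MDA-MB-231 and at 0.843 times in LM2-4175.

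None of the other SLC38 genes was called. SLC38A9, a lysosomal protein that reports arginine to mTORC1, had 10.2 and 12.7 FPKM. SLC38A7, which lets glutamine and asparagine out of the lysosome, had 4.58 and 5.34 FPKM. SLC38A10 had 19.6 FPKM in MDA-MB-231 (14.3 to 24.9) and 14.9 FPKM in LM2-4175 (10.5 to 19.2). SLC38A6 was at 7.31 and 8.21 FPKM, but its bounds were the widest of the 26 genes relative to the level, with an upper bound 95.3% above the value in MDA-MB-231 and 100% above it in LM2-4175. Of the proton-coupled carriers of the SLC36 family, SLC36A1 (PAT1), found at the lysosome, had 4.86 and 4.69 FPKM, and SLC36A4 had 19.4 FPKM (11.9 to 26.9) and 14.6 FPKM (8.87 to 20.4). The direction of SLC36A1 and of SLC43A1 flipped when the FPKM sums were made equal, from -0.04 to 0.03 and from -0.05 to 0.02 on the log2 scale. The 4 genes SLC38A9, SLC38A7, SLC36A1 and SLC36A4 summed to 39.0 and 37.4 FPKM, of which SLC36A4 held 19.4 and 14.6 FPKM.

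Among the SLC1 genes, SLC1A5 (ASCT2), the exchanger through which many cancer cells take up glutamine, had 91.2 FPKM in MDA-MB-231 (61.3 to 121) and 80.8 FPKM in LM2-4175 (56.3 to 105). Its log2 fold change was -0.17 and the bounds allow ratios of 0.464 to 1.72. Other genes overlap 23.8% of its exon bases. SLC1A4 (ASCT1), the exchanger of serine, alanine and cysteine, was listed at 3.94 and 5.56 FPKM. SLC1A3 (EAAT1), which concentrates glutamate and aspartate, had 7.93 FPKM (3.76 to 12.1) and 4.99 FPKM (2.37 to 7.62), just under 1.5-fold apart at FPKM + 1. The 21 protein-coding genes tested within 3 Mb of SLC1A3 had a median log2 fold change of -0.33, with 17 lower and 0 called. Of all 12082 protein-coding genes tested, 6680 were lower. Such a lean was not particular to SLC1A3. Around SLC36A4, 14 of 18 neighbours were lower, and around SLC6A8, 36 of 44 were higher, each in the direction of the transporter. Around SLC3A1, 19 of 26 were lower, against its direction. SLC1A1 (EAAT3), another glutamate carrier, was at 0.888 and 1.05 FPKM. SLC1A2, SLC1A6 and SLC1A7 were at 0.181 FPKM or less in both lines. Of the carriers of arginine and lysine, SLC7A1 (CAT1) was at 38.9 FPKM (30.0 to 47.8) and 43.4 FPKM (33.4 to 53.5) and SLC7A2 at 4.56 and 5.08 FPKM. SLC7A4 and SLC7A14, related proteins without a settled substrate, were at 0.0759 FPKM or less, and SLC7A3 was listed at 0.

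**Figure D3:**
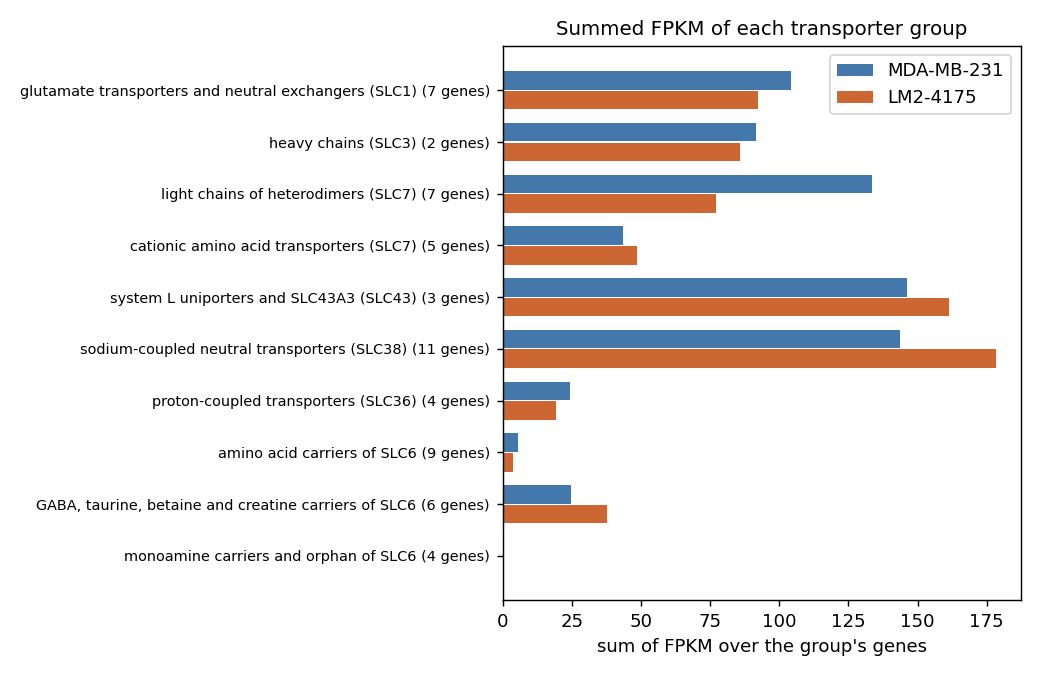
Summed FPKM (x axis, from 0) of all genes in each of 10 transporter groups (y axis) in MDA-MB-231 and LM2-4175, including the genes below 0.5 FPKM. The light chains of SLC7 sum to 134 FPKM in MDA-MB-231 and 77.1 FPKM in LM2-4175, and the SLC38 group to 143 and 178 FPKM.

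The SLC6 family serves amino acids, neurotransmitters and osmolytes, and most of its members were low. SLC6A6 (TauT), which takes up taurine, had 21.5 FPKM in MDA-MB-231 (bounded by 15.3 and 27.7), against 33.4 FPKM in LM2-4175 (20.1 to 46.7). It was past 1.5-fold, with a log2 fold change of 0.61, but the bounds overlap and it was not called. The 31 protein-coding genes tested within 3 Mb of SLC6A6 had a median of 0.19, with 22 higher. SLC6A8, the creatine carrier, had 2.72 FPKM (1.29 to 4.16) and 4.02 FPKM (2.20 to 5.85), and its copy SLC6A10P was listed at 0 in both lines. SLC6A9 (GlyT1), a glycine carrier, was at 5.28 FPKM (3.07 to 7.48) and 3.54 FPKM (1.77 to 5.31). It was the only one of 9 amino acid carriers of the family that was tested. The monoamine carriers SLC6A2, SLC6A3 and SLC6A4 and the orphan SLC6A16 were at 0.0433 FPKM or less in both lines.

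The 32 genes below the limit were accounted for as follows. In both lines 8 were listed at 0, namely SLC6A2, SLC6A5, SLC6A15, SLC6A18, SLC6A19, SLC7A3, SLC7A13 and SLC38A8, and 7 others were listed at 0 in one line. A listed 0 can be a failed estimate, because EEF1A1, which all cells use, was listed at 0 and flagged by the quantification as not OK. Such flags were rare, on 8 genes in the whole table. For 30 of the 32 genes the lower bound was 0 in both lines. The highest level among them was that of SLC6A12, a betaine and GABA carrier, at 0.446 FPKM in MDA-MB-231 and 0.115 FPKM in LM2-4175. SLC6A14, a broad amino acid carrier known from epithelia, was at 0.0825 and 0.142 FPKM, and SLC38A3 and SLC38A5, the glutamine carriers of system N, were at 0.269 FPKM or less. No fold is given for these genes.

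**Figure D4:**
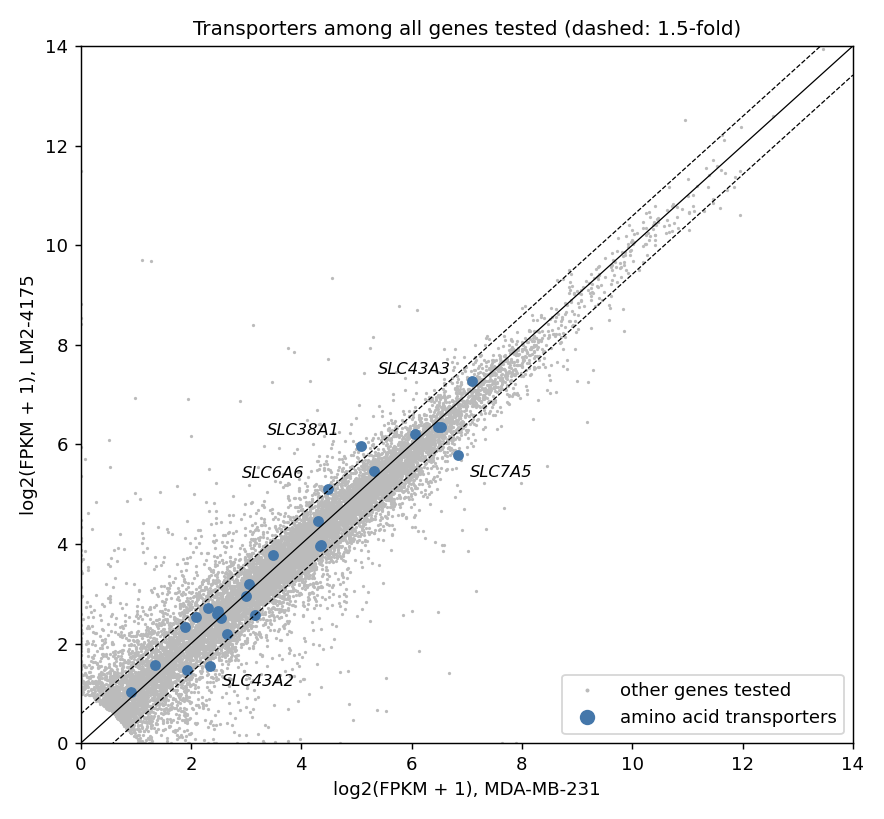
Log2(FPKM + 1) in MDA-MB-231 (x axis) and LM2-4175 (y axis) of the 26 transporters tested (large points) and the other genes tested (small points), with dashed lines at 1.5-fold. SLC7A5 and SLC43A2 lie below the lower dashed line and SLC38A1 and SLC6A6 above the upper one, and the other 22 transporters lie between them.

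Expression of the transporters was concentrated in few genes. The 5 highest by mean level, SLC43A3, SLC1A5, SLC3A2, SLC7A5 and SLC38A2, held 68.8% of the FPKM of all 58 genes in MDA-MB-231 and 62.7% in LM2-4175. The sum over the 58 genes was 717 FPKM and 704 FPKM. In LM2-4175, SLC43A3 was followed by SLC3A2 and SLC1A5, which were nearly equal, with SLC38A2, SLC38A1 and SLC7A5 after them. The lower bound of SLC43A3 (112 FPKM) lay above the upper bounds of SLC3A2 (103 FPKM) and SLC1A5 (105 FPKM), while the bounds of each other pair of neighbours in this order overlap. A level of at least 10 FPKM in both lines was found for 12 genes. The upper bound lay above the value by a median of 35.2% in MDA-MB-231 and 34.9% in LM2-4175 over the 26 genes, and by 38.6% and 38.1% over all genes tested.

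**Figure D5:**
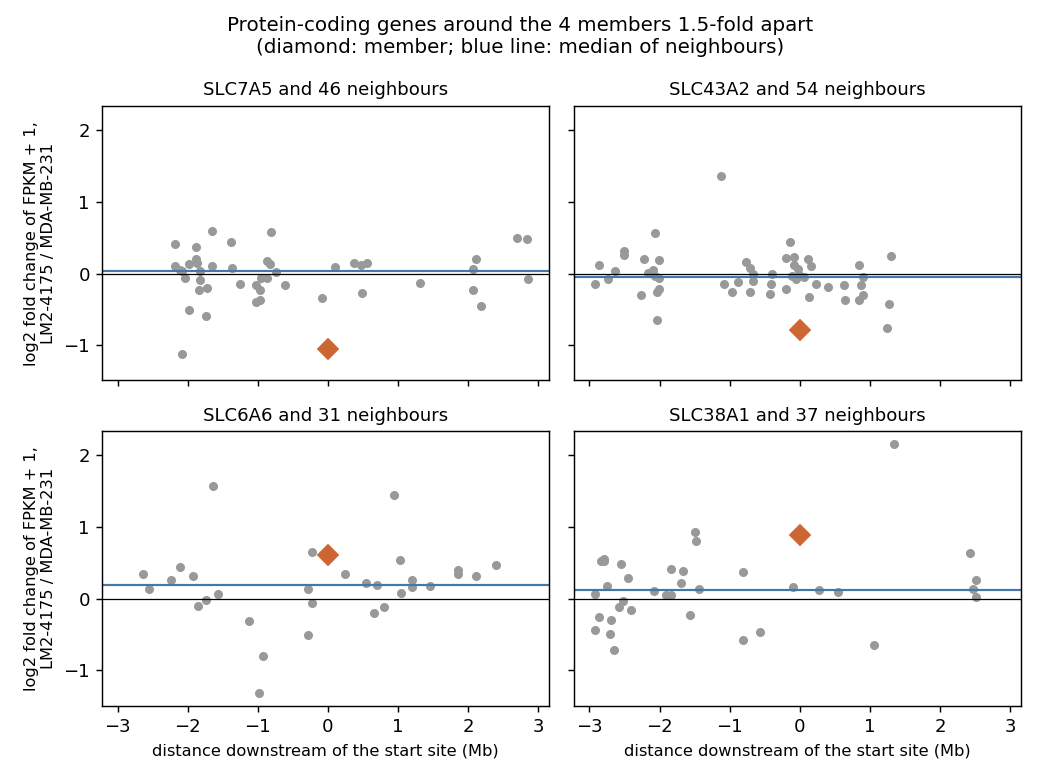
Log2 fold change of FPKM + 1 (y axis) against distance downstream of the member's start site in Mb (x axis) for protein-coding genes tested within 3 Mb of the 4 transporters that were at least 1.5-fold apart (diamonds), with the median of the neighbours as a blue line. SLC7A5 lies at -1.06 while its 46 neighbours have a median of 0.04, and SLC43A2 lies at -0.79 while its 54 neighbours have a median of -0.04.

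Enzymes that make or use the carried amino acids were set beside the transporters. Of 27 genes for glutamine, serine and other nonessential amino acids, 23 were tested, with 3 called higher and 1 called lower (17.4%), and their median log2 fold change was 0.07. GLUL, which makes glutamine from glutamate, fell from 95.5 FPKM (bounds 63.3 to 128) to 14.9 FPKM (9.27 to 20.5), 6.43-fold lower. PHGDH, the first enzyme of serine synthesis, was 17.3-fold higher, with 1.18 FPKM in MDA-MB-231 (0.692 to 1.67) and 20.5 FPKM in LM2-4175 (15.4 to 25.6). PSAT1, the next enzyme of that pathway, rose from 33.7 to 55.1 FPKM, and ASNS, which makes asparagine, rose from 12.8 to 22.4 FPKM. The bounds of both were barely apart, with lowest allowed ratios of 1.01 and 1.02. The share called is set beside the 3.85% of the transporters and the 9.27% of all genes tested as a description, with no test. The shares of the enzymes and of the transporters rest on few genes each.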

How the data were processed

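RNA-Seq of MDA-MB-231 and LM2-4175 was used, with 2 libraries per cell line. The authors aligned paired reads to hg19 with TopHat2 and quantified GENCODE genes with Cufflinks and Cuffdiff. They also called differential genes between cell lines with Cuffdiff, by a fold of at least 1.5 and a q-value, and those results were not used here. The deposited values are FPKM with lower and upper bounds, 1 set per cell line. How library sizes were scaled, whether strand was used in counting and whether the bounds take in variation between libraries are not given in the sources used here. The table holds no read counts, and the library totals that the study states were not used here.

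The log2 fold change is that of FPKM + 1, LM2-4175 over MDA-MB-231, which understates the change of low genes, in Python 3.11.15 with NumPy 2.4.6 and pandas 2.3.3 (figures with Matplotlib 3.10.9). All genes of the table with a mean of at least 0.5 FPKM were tested, except 4 that the quantification did not mark as OK (8 such genes in the whole table). The test across libraries that had been designed could not be run on pooled values. A call needed at least 1.5-fold and bounds that lay apart, so it describes the pooled libraries and not the lines at large. All transporters tested are named, and of the other lists the genes called and those with the largest changes, except items that are not reported here. The neighbours of SLC1A3, SLC36A4, SLC6A8 and SLC3A1 were singled out after their values were seen. Positions and exon overlaps on either strand are from GENCODE 44 on GRCh37, the same assembly as hg19. The transporters and all lists were chosen with earlier results of these data known. Alternatives were other pseudocounts, filters, folds and scalings.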

Additional observations from a re-analysis of the deposited data

How the results depend on the processing

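SLC7A5 was called lower under all alternatives tried. With the FPKM sums made equal, as TPM, 1 transporter was called higher and the median log2 fold change was 0.22. With the median of all genes set to 0, also 1 was called higher. In both cases it was SLC38A1, and over all genes tested more were called higher and fewer lower than without rescaling. Without a filter 50 transporters were tested, with a median of -0.0031. At 1.5-fold alone 2 were higher and 2 lower, and on the ratio without a pseudocount, chosen after the data were seen, 2 were higher and 4 lower, with SLC1A3 and SLC38A4 added. The other alternatives moved neither the counts of calls by over 1.5 times nor the median by 0.05. No paired analysis was possible because the table holds 1 pooled value per cell line, and for the same reason leaving out each replicate was not run. No difference was checked across replicates here, and the bounds of low genes are wide.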

Other observations

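Genes of the machinery that reads amino acids at the lysosome differed in both directions. All 30 genes of this list were tested, 16 were higher and 14 lower in LM2-4175, and the median log2 fold change was 0.03. At 1.5-fold without regard to the bounds 4 were higher and 4 lower (26.7%, against 22.1% of all genes), among them GATSL3 (2.82 and 6.57 FPKM) and GATSL2 (2.38 and 0.945 FPKM), with bounds that overlap. SESN3, one of the sestrins that restrain mTORC1, was the 1 gene called (3.33%, against 9.27% of all genes tested). It fell from 1.40 FPKM (bounds 0.894 to 1.91) to 0.437 FPKM (0.150 to 0.725). SESN2, the leucine-binding sestrin, had 2.24 FPKM (1.56 to 2.91) and 3.87 FPKM (2.79 to 4.94), with bounds that overlap. RHEB, the small GTPase that switches mTORC1 on, was at 297 FPKM (220 to 375) and 183 FPKM (137 to 229), also with overlapping bounds. MTOR and RPTOR, the kinase and its scaffold, had 11.7 and 15.1 FPKM in MDA-MB-231 and 12.6 and 17.3 FPKM in LM2-4175.

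Amino acid carriers of other families were tested for 14 of 20 genes, and 0 were called, against 9.27% of all genes tested. Of the 14, 3 were higher and 11 lower, and the median log2 fold change was -0.06. SLC25A12, a mitochondrial carrier of aspartate and glutamate, had 7.49 FPKM in MDA-MB-231 (2.09 to 12.9) and 12.8 FPKM in LM2-4175 (6.14 to 19.5). SLC15A3, a lysosomal carrier of histidine and small peptides, had 6.14 and 2.39 FPKM with lower bounds of 0 in both lines.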
